A study of Mus musculus with 8 samples.

Results

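Genes of MHC class I peptide processing were followed through naïve and efferocytic mouse macrophages (Mϕ) with and without LPS/IFNγ: Nlrc5, Tap1, Tap2, Tapbp, B2m, Psmb8, Psmb9, Psmb10, H2-K1 and H2-D1. They were chosen by symbol, through the Ensembl identifiers that GENCODE gives for each, and make up 10 of the 55359 genes listed. MHC class I molecules display peptides from proteins made inside a cell to CD8 T cells. The proteasome makes these peptides, the TAP transporter brings them into the endoplasmic reticulum, and a heavy chain folds around them with β2-microglobulin. Interferons are known to raise this machinery and to exchange the catalytic proteasome subunits for immunosubunits, and Mϕ use it to present antigens.

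RNA came from bone marrow-derived Mϕ (BMDMs) of C57BL/6 wildtype mice, with n = 2 samples in each of 4 groups. All BMDMs were grown with M-CSF and GM-CSF at 20 ng/mL each, and CD45-positive cells were isolated at harvest. The labels give 7 days of differentiation in the growth notes but 6 days in the treatment notes. Ctrl samples were naïve and unstimulated, and LPS samples were naïve Mϕ given LPS at 100 ng/mL together with murine IFNγ at 100 U/mL for 6 h. Eff samples had been kept for 16 h with apoptotic NIH-3T3 fibroblasts, 5 per Mϕ, in the presence of 10 nM dimerizer. LPSEff samples received the same co-culture, a wash and then the same LPS/IFNγ for 6 h. The fibroblasts are a single clone of a mouse line in which the dimerizer activates a caspase-8 domain, so that any other source of apoptotic cells lies outside these data. The labels do not say that the samples of a group come from separate cultures or animals, so that the p-values measure the spread between these samples.

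The shallowest sample was Ctrl replicate 1 with 3481288 recovered reads, and the deepest was Ctrl replicate 2 with 12020918. The LPS samples held 6548938 and 9344411 reads, the Eff samples 7517814 and 9745287, and the LPSEff samples 11267193 and 7472370. The Mϕ identity of the samples was checked with 10 marker genes, all of which were detected in each of the 8 samples. Lyz2 was the most abundant of them (mean 77923 normalized counts), and the summed level of the list lay between 109216 and 166572 normalized counts per sample. Of the 10, 3 were higher in LPS than in Ctrl and 4 in LPSEff than in Eff, against 12.4% and 10.7% of all genes tested, with none lower (limma). This split depended on scaling. In LPS against Ctrl, 3 were higher and 2 lower with equal totals, and 2 higher and 3 lower with quantile normalization, so that the median moved from 0.31 to −0.09 and −0.26. For LPSEff against Eff, 3 were higher and none lower with equal totals, and 3 higher and 2 lower with quantile normalization, with medians of 0.19 and 0.04 in place of 0.64. In the efferocytosis contrasts 0 were called (limma). T, B and NK cell markers were nearly absent. None of these 9 genes reached the mean of 10 normalized counts needed for a test, and the most abundant, Cd4, had a mean of 4.57. Of 5 dendritic cell markers, Ccr7 was the most abundant (mean 5054). In LPS against Ctrl and in LPSEff against Eff, this list had medians of 1.53 and 1.66, with all 5 estimates above 0. DESeq2 called 4 and 2 of the 5 higher. By limma the list passed the test in 2 genes in LPS against Ctrl and in 1 in LPSEff against Eff. All were higher, against 12.4% and 10.7% of all genes tested. Left-out samples moved these counts to 1 (without Ctrl replicate 1 or LPS replicate 2) and 2 (without either LPS replicate). In Eff against Ctrl and in LPSEff against LPS it had medians of −0.70 and −0.81, with 0 called (limma). Of 4 tested neutrophil markers, with S100a8 as the most abundant (mean 630.1), 2 were higher in LPS than in Ctrl, against 12.4% of all genes tested, and 1 without Ctrl replicate 1, Ctrl replicate 2 or LPS replicate 1. In LPSEff against Eff, 1 was higher, against 10.7%, and 0 by limma with equal totals, with only the groups compared, or without either Ctrl replicate, either Eff replicate or LPSEff replicate 1. In Eff against Ctrl, 1 was higher, against 0.215%, and no gene of any kind was called without Eff replicate 2.

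LPS/IFNγ raised each of these genes in both kinds of Mϕ. In naïve Mϕ, 10 of the 10 genes were higher in LPS than in Ctrl at an adjusted p under 0.05 from limma, against 12.4% of the 16309 genes tested, and 0 of 10 were lower, against 11.6%. In efferocytic Mϕ, 10 of 10 were higher in LPSEff than in Eff, against 10.7% of the genes tested, and 0 of 10 were lower, against 8.95%. The median log2 fold change of the 10 genes reached 2.14 (naïve) and 2.39 (efferocytic), beside −0.01 and 0.01 over all genes tested. The split of all calls depended on scaling. In LPS against Ctrl, 2015 genes were higher and 1895 lower, but with samples rescaled to equal totals 1420 were higher and 4315 lower (median −0.40), and with quantile normalization 1844 and 2302. In LPSEff against Eff, 1753 were higher and 1460 lower, with equal totals 1216 and 4362 (median −0.44), and with quantile normalization 1640 and 2100. For each of the 10 genes, both stimulated samples lay above both unstimulated samples of the same kind, as in 4630 (naïve) and 4804 (efferocytic) of all genes tested. Fold changes are differences on the scale of log2(normalized count + 1), with 1 as the pseudocount. In bulk RNA, fewer cells of a type and less RNA per cell cannot be told apart.

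**Figure D1:**
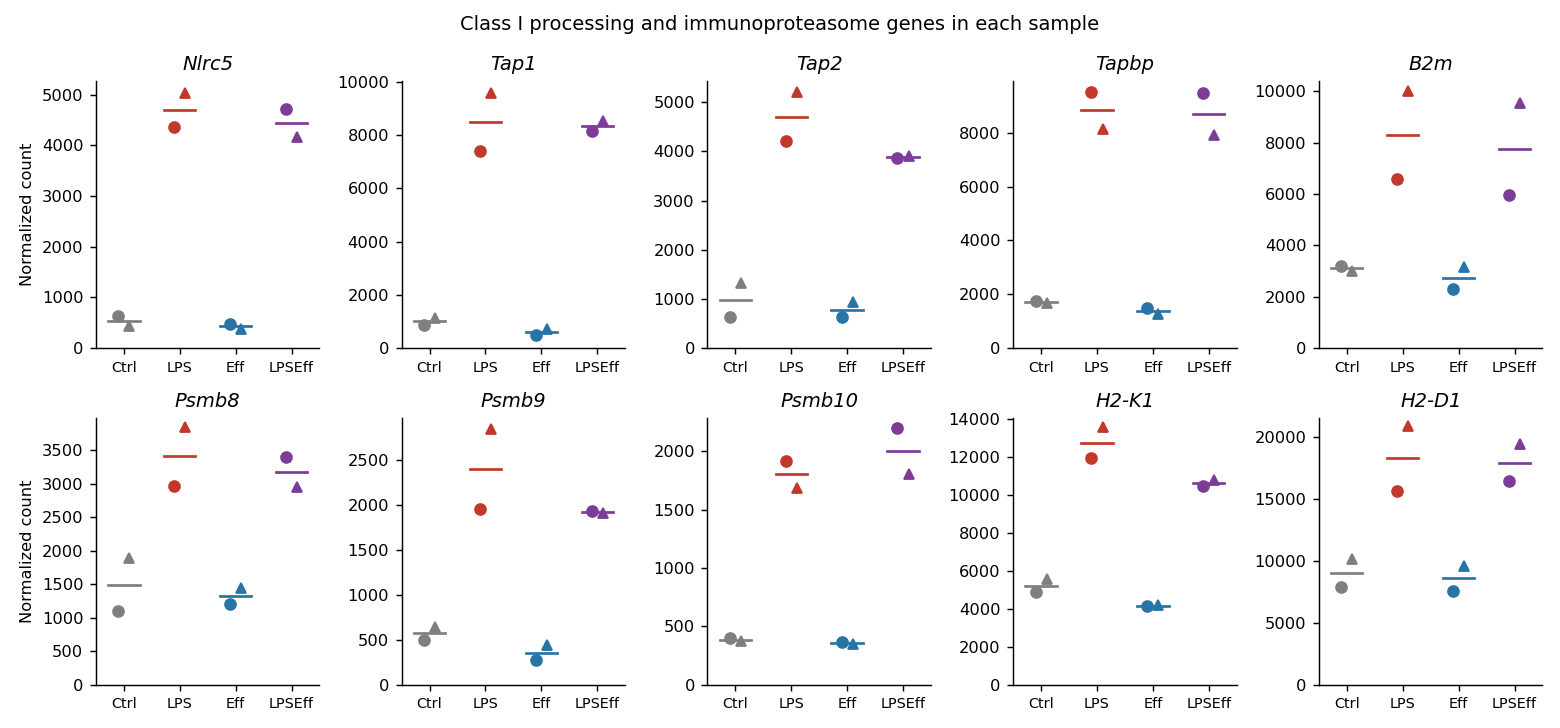
Normalized counts of the 10 genes in each of the 8 samples, with 1 panel per gene, circles for replicate 1, triangles for replicate 2 and lines for group means. In each panel the LPS and LPSEff samples lie above the Ctrl and Eff samples, and Nlrc5 and Tap1 show the steepest steps.

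Nlrc5, the transactivator of class I promoters, is encoded on chromosome 8 (95160984 to 95253900, GRCm39). It had 638 and 442 normalized counts in Ctrl, 4354 and 5036 in LPS, 478 and 383 in Eff, as well as 4707 and 4164 in LPSEff. The stimulated samples stood far above the unstimulated ones, and within each of these sets the naïve and efferocytic samples overlapped. The log2 fold change was 3.14 (SE 0.23, adjusted p = 8.75e-05 from limma) in naïve and 3.37 (SE 0.23, adjusted p = 5.51e-05) in efferocytic Mϕ. This was the largest rise of the 10 genes in naïve Mϕ.

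Tap1 and Tap2 encode the chains of the peptide transporter. Tap1 had 885 and 1146 normalized counts in Ctrl, 7419 and 9575 in LPS, 500.4 and 701 in Eff, as well as 8165 and 8544 in LPSEff. Both Eff samples lay below both Ctrl samples, whereas the LPS samples enclosed the LPSEff samples. Tap1 rose by 3.06 on the log2 scale (SE 0.24, adjusted p = 0.000117 from limma) in naïve and by 3.82 (SE 0.24, adjusted p = 3.85e-05) in efferocytic Mϕ, where it rose most of the 10 genes. Tap2 had 625 and 1334 normalized counts in Ctrl, 4215 and 5201 in LPS, 639 and 928 in Eff, as well as 3867 and 3903 in LPSEff. Its Eff samples lay between its Ctrl samples, and its LPSEff samples were close together just below the LPS samples. The log2 fold change of Tap2 was 2.36 (SE 0.35, adjusted p = 0.00221 from limma) in naïve and 2.33 (SE 0.35, adjusted p = 0.00277) in efferocytic Mϕ.

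Tapbp encodes tapasin, which holds empty class I molecules at the transporter. It had 1759 and 1664 normalized counts in Ctrl, 9504 and 8148 in LPS, 1501 and 1254 in Eff, as well as 9459 and 7921 in LPSEff. The unstimulated groups were separate, with Eff lower, and the stimulated groups overlapped. The log2 fold change was 2.36 (SE 0.19, adjusted p = 0.000154 from limma) in naïve and 2.66 (SE 0.19, adjusted p = 7.77e-05) in efferocytic Mϕ. In the annotation, 20.9% of the exon bases of Tapbp are shared with Zbtb22 on the same strand, so that its counts are uncertain to that extent.

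Psmb8, Psmb9 and Psmb10 encode the immunosubunits, the catalytic subunits of the immunoproteasome. Psmb8 had 1097 and 1892 normalized counts in Ctrl, 2971 and 3845 in LPS, 1208 and 1441 in Eff, as well as 3403 and 2956 in LPSEff. Its stimulated and unstimulated samples did not overlap, but replicate 2 of Ctrl stood well above the other unstimulated samples. Psmb9 had 503 and 640.2 normalized counts in Ctrl, 1957 and 2844 in LPS, 281 and 438 in Eff, as well as 1938 and 1909 in LPSEff. It was lower in both Eff samples than in both Ctrl samples, and its LPSEff samples lay just below the lower LPS sample. Psmb10 had 398 and 376 normalized counts in Ctrl, 1922 and 1691 in LPS, 371 and 351 in Eff, as well as 2197 and 1806 in LPSEff. Its groups were tight, and Eff lay slightly below Ctrl. In naïve Mϕ the log2 fold changes were 1.23 for Psmb8 (SE 0.28, adjusted p = 0.0148 from limma), 2.05 for Psmb9 (SE 0.27, adjusted p = 0.00135) and 2.22 for Psmb10 (SE 0.18, adjusted p = 0.000137). In efferocytic Mϕ they were 1.26 for Psmb8 (SE 0.28, adjusted p = 0.0149 from limma), 2.45 for Psmb9 (SE 0.27, adjusted p = 0.000649) and 2.46 for Psmb10 (SE 0.18, adjusted p = 7.75e-05).

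B2m, the invariant light chain, had 3195 and 3000.3 normalized counts in Ctrl, 6589.8 and 10007 in LPS, 2304 and 3172 in Eff, as well as 5953 and 9549 in LPSEff. In both stimulated groups replicate 2 was much higher than replicate 1, and naïve and efferocytic samples overlapped throughout. The log2 fold change was 1.39 (SE 0.30, adjusted p = 0.0127 from limma) in naïve and 1.48 (SE 0.30, adjusted p = 0.0112) in efferocytic Mϕ. H2-K1 and H2-D1 encode the classical heavy chains that hold the peptide. H2-K1 had 4905 and 5549 normalized counts in Ctrl, 11915 and 13586 in LPS, 4138 and 4176 in Eff, as well as 10458 and 10786 in LPSEff. Its efferocytic samples were below the naïve samples both with and without stimulation. H2-D1 had 7914 and 10168 normalized counts in Ctrl, 15667 and 20902 in LPS, 7559.7 and 9623 in Eff, as well as 16471 and 19414 in LPSEff. Efferocytic and naïve samples of H2-D1 overlapped. H2-K1 rose by 1.29 on the log2 scale (SE 0.19, adjusted p = 0.00212 from limma) in naïve and by 1.35 (SE 0.19, adjusted p = 0.00193) in efferocytic Mϕ. For H2-D1, which had the smallest rise of the 10 genes, the values were 1.01 (SE 0.25, adjusted p = 0.0229 from limma) and 1.07 (SE 0.25, adjusted p = 0.0209). Heavy chain genes are near-identical in places. Of all 50-base windows of the canonical transcript, 14.2% in H2-D1 and 8.79% in H2-K1 also occur in transcripts of other genes, chiefly other H2 genes. Reads from such windows may be lost or placed with a related gene, so that the levels of both heavy chains are uncertain.

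The smaller rises depended on scaling or on single samples. With quantile normalization, 6 of the 10 genes were called in each kind of Mϕ, and 4 were not: B2m (log2 fold changes 0.61 naïve and 0.65 efferocytic), Psmb8 (0.67 and 0.75), H2-K1 (0.39 and 0.48) and H2-D1 (0.08 and 0.07). H2-K1 lost its call in no other setting. H2-D1 also lost it with equal totals in naïve (0.61, adjusted p = 0.0592 from limma) and efferocytic Mϕ (0.62, adjusted p = 0.0585), and in naïve Mϕ with only the groups compared (0.0678). In naïve Mϕ, the call of H2-D1 was lost without Ctrl replicate 1 (adjusted p = 0.137 from limma), without Ctrl replicate 2 (0.0509) and without LPS replicate 2 (0.106). That of B2m was lost without these same samples (adjusted p = 0.0605, 0.0720 and 0.0617 from limma), and that of Psmb8 without Ctrl replicate 1 (0.0871) or LPS replicate 2 (0.0687). In efferocytic Mϕ, H2-D1 lost its call without Eff replicate 1 (adjusted p = 0.143 from limma), Eff replicate 2 (0.0550), LPSEff replicate 1 (0.0625) or LPSEff replicate 2 (0.104). There B2m lost it without Eff replicate 1 (adjusted p = 0.0835 from limma) or LPSEff replicate 2 (0.0650), and Psmb8 without Eff replicate 1 (0.0959) or LPSEff replicate 1 (0.0901). In none of these settings did a rise change its direction.

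By limma without further terms, none of these genes passed the test for efferocytosis alone. In Eff against Ctrl, 0 of the 10 genes were called higher, against 0.215% of the genes tested, and 0 were called lower, against 0.0368% (limma). At an unadjusted p under 0.05, 1000 of the 16309 genes passed, among them Tap1 and Psmb9. The log2 differences of the 10 genes ran from −0.77 to −0.07, with a median of −0.28 against −0.01 over all genes tested. The 5 dendritic cell markers, not called either, had a median of −0.70, so that a change in cell types was not separated from one within cells. For 5 of the 10 genes (Tap1, Tapbp, Psmb9, Psmb10 and H2-K1) both Eff samples lay below both Ctrl samples, as in 17.8% of all genes tested. The log2 difference of Tap1 was −0.77 (SE 0.24, adjusted p = 0.475 from limma), and that of Psmb9 was −0.69 (SE 0.27, adjusted p = 0.729). Leaving out a sample turned the sign of the log2 difference in Tap2 (0.30 without Ctrl replicate 2, 0.02 without Eff replicate 1), B2m (0.03 without Eff replicate 1), Psmb8 (0.27 without Ctrl replicate 2, 0.00 without Eff replicate 1) and H2-D1 (0.11 without Ctrl replicate 2, 0.10 without Eff replicate 1). DESeq2 and edgeR on the recovered reads, without a block, also called 0 of the 10. With the replicate number as a block, Tap1 was called lower (adjusted p = 0.01996 from limma), but no label pairs the samples.

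After LPS/IFNγ, none of these genes was called between naïve and efferocytic Mϕ. In LPSEff against LPS, 0 of 10 were called higher, against 0.73% of the genes tested, and 0 were called lower, against 0.0429% (limma), while 1679 of all genes had an unadjusted p under 0.05. The log2 differences lay between −0.29 and 0.14, with a median of −0.09 against −0.00 over all genes tested. In Tap2, Psmb9 and H2-K1, 3 of the 10 genes, both LPSEff samples lay below both LPS samples, as in 17% of all genes tested. Leaving out a sample turned the sign in Nlrc5 (0.02 without LPS replicate 2, 0.01 without LPSEff replicate 2), Tap1 (0.17 without LPS replicate 2, 0.02 without LPSEff replicate 1), Tapbp (0.09 without LPS replicate 1, 0.10 without LPSEff replicate 2), B2m (0.19 without LPS replicate 2, 0.23 without LPSEff replicate 1), Psmb8 (0.09 without LPS replicate 2, 0.01 without LPSEff replicate 2) and H2-D1 (0.19 without LPS replicate 2, 0.10 without LPSEff replicate 1). By edgeR and DESeq2, 0 of the 10 were called as well. A p that misses the threshold does not show that the levels were equal, and with SEs between 0.18 and 0.35 small differences were not detectable here.

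Whether LPS/IFNγ acted differently on naïve and efferocytic Mϕ was asked with an interaction term. By limma, 0 of the 10 genes and 0% of the genes tested were called, with 311 genes at an unadjusted p under 0.05, and edgeR and DESeq2 called 0 as well. The largest estimate was that of Tap1, whose rise was larger in efferocytic Mϕ by 0.75 on the log2 scale (SE 0.34, adjusted p = 1.00). The comparisons share samples, since LPS and Eff were both set against Ctrl and LPSEff against both LPS and Eff.

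Fibroblast markers were found in all groups, with the highest sums in the efferocytic samples. Of 15 fibroblast markers, 13 were tested, of which 7 were higher in Eff than in Ctrl and 6 higher in LPSEff than in LPS, and none was lower (limma), against 0.215% and 0.73% of all genes tested that were higher. These counts rest on few samples. In Eff against Ctrl, the 41 genes of any kind called became 0 without Eff replicate 2, 4 without Ctrl replicate 1, 8 without Ctrl replicate 2, and 9 without either LPSEff replicate. In LPSEff against LPS, the 126 genes called became 0 without LPSEff replicate 1, 6 without LPSEff replicate 2, 17 without LPS replicate 2, and 56 to 84 without any other sample. With LPS/IFNγ, 3 of the 13 fibroblast markers were higher in LPS than in Ctrl and 1 in LPSEff than in Eff, against 12.4% and 10.7% of all genes tested, with medians of 1.32 and 0.88. Left-out samples moved these counts to between 2 and 6, and to between 0 and 3 (limma). With equal totals they were 2 and 1, with medians of 0.94 and 0.43. Summed over the list, the level was 198 and 404 normalized counts in Ctrl, 965 and 1006 in LPS, 2255 and 4215 in Eff, as well as 6437 and 5583 in LPSEff. The most abundant gene was the collagen gene Col1a2, with 7.62 and 39.9 normalized counts in Ctrl and 582 and 1107 in Eff. Col6a2, Col6a3 and Postn were at 0 in Ctrl replicate 1 and Lum in LPS replicate 1, and no marker was at 0 in an Eff or LPSEff sample. The part of these transcripts in the Eff and LPSEff values of the 10 genes was not tested.

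Between genes, levels were compared as normalized counts per kb of the Ensembl canonical transcript. In Ctrl the order was H2-D1 with 4271 ± 753 per kb (SD, n = 2), H2-K1 with 3229 ± 281 and B2m with 2852 ± 127. Psmb8 (878 ± 330.2), Tapbp (575 ± 22.7), Psmb9 (422 ± 71.9) and Tap1 (327 ± 59.3) came next, and Psmb10 (295 ± 11.6), Tap2 (246 ± 126) and Nlrc5 (71.3 ± 18.2) were lowest. The samples of Tap1, Psmb10 and Tap2 overlapped, so that their order is not beyond the spread. H2-D1 ranked 79 among 16241 tested genes with a length, and Nlrc5 ranked 6659. In LPS the heavy chains and B2m still led, at 8637 ± 1749 per kb for H2-D1, 7876 ± 730.2 for H2-K1 and 7641 ± 2225 for B2m, and their samples overlapped. Tapbp (2964 ± 322) and Tap1 (2737 ± 491) had moved ahead of Psmb8 (2002 ± 363), and Nlrc5 remained lowest (619.5 ± 63.7) with a rank of 977.

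Each immunosubunit takes the place of a constitutive subunit when a new proteasome is assembled, Psmb8 that of Psmb5, Psmb9 that of Psmb6 and Psmb10 that of Psmb7. The share of the immunosubunit in the transcripts of its pair was computed per kb. The share of Psmb10 was 44.2% and 38.6% in Ctrl, 75.3% and 69.4% in LPS, 39.5% and 35.0% in Eff, as well as 74.0% and 68.0% in LPSEff. It separated stimulated from unstimulated samples by a wide margin, and in both LPS/IFNγ contrasts it did so without overlap. The share of Psmb9 was 26.6% and 30.5% in Ctrl, 38.1% and 55.4% in LPS, 15.7% and 21.5% in Eff, as well as 33.1% and 37.3% in LPSEff. Here the Eff samples were below the Ctrl samples and the LPSEff samples below the LPS samples. The share of Psmb8 was 80.9% and 89.7% in Ctrl, 92.4% and 95.9% in LPS, 85.2% and 89.8% in Eff, as well as 94.1% and 95.0% in LPSEff. It was thus high in each sample, and Ctrl and Eff overlapped. The shares are given without a test. The level of the shares depends on the length used, and with the union of all exons the mean of Psmb10 in Ctrl was 73.5% in place of 41.4%. In Psmb5, 48.7% of the 50-base windows also occur in other genes, chiefly Gm3375, so that its counts and the share of Psmb8 are uncertain.

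**Figure D2:**
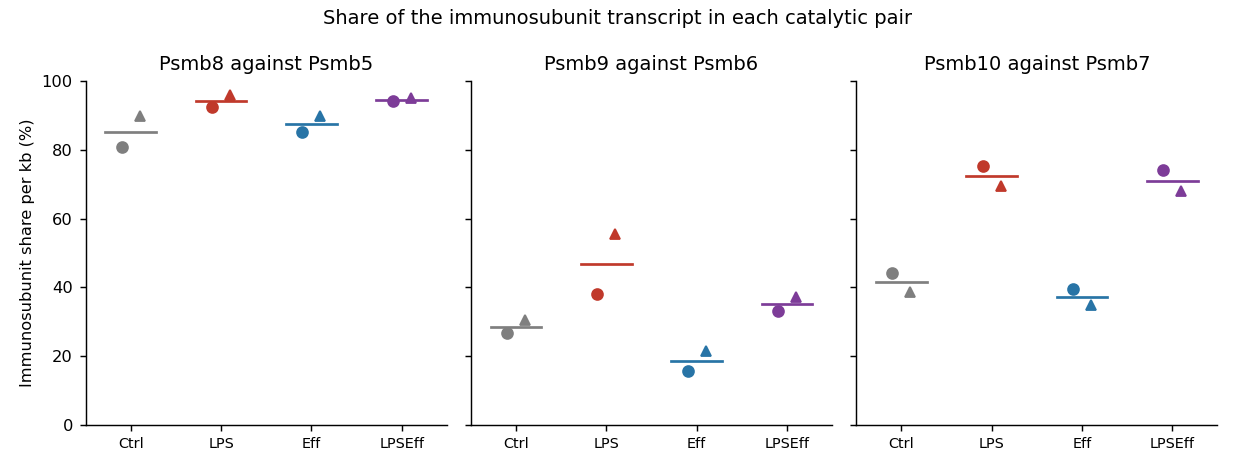
Percentage of the immunosubunit in the summed level per kb of each catalytic pair, for the 8 samples, with circles for replicate 1, triangles for replicate 2 and lines for group means. The Psmb10 share lies between 35.0% and 44.2% without LPS/IFNγ and between 68.0% and 75.3% with it.

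Psmb6 itself rose, whereas Psmb5 and Psmb7 were not called. Psmb6 had 1063 and 1114 normalized counts in Ctrl, 2434 and 1754 in LPS, 1158 and 1220.2 in Eff, as well as 3005 and 2458 in LPSEff. All stimulated samples were above all unstimulated ones. Its log2 fold change was 0.92 (SE 0.21, adjusted p = 0.0147 from limma) in naïve and 1.19 (SE 0.21, adjusted p = 0.00581) in efferocytic Mϕ. With samples rescaled to equal totals the call in naïve Mϕ was lost (adjusted p = 0.117 from limma), and with quantile normalization likewise (0.145). Psmb6 lost its call in naïve Mϕ without Ctrl replicate 1 (adjusted p = 0.0826 from limma), Ctrl replicate 2 (0.0647) or LPS replicate 1 (0.0716). The log2 differences of Psmb5 were −0.24 and −0.03. Those of Psmb7 were 0.32 and 0.41, and they lay below 0 with equal totals (−0.08 and −0.04).

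Of 11 other subunits of the 20S core, 2 were higher in LPS than in Ctrl (Psmb2 and Psma6) and 2 higher in LPSEff than in Eff (Psma5 and Psma6), against 12.4% and 10.7% of all genes tested, with medians of 0.54 and 0.59. Both medians became 0.14 with equal totals, and left-out samples moved the naïve median to between 0.26 (without LPS replicate 2) and 0.71 (without LPS replicate 1). All 11 estimates lay above 0 in both contrasts, as did 8062 and 8207 of the 16309 genes tested, but with equal totals only 7 and 8 of the 11 did, against 5065 and 4704 genes. Of 18 subunits of the 19S cap, which recognises and unfolds ubiquitinated proteins, 0 were called in naïve Mϕ and 2 were higher in efferocytic Mϕ (Psmd11 and Psmd7), with medians of 0.23 and 0.32. With equal totals these medians became −0.18 and −0.13. No gene of both lists was lower, but with equal totals 1 of the 18 cap subunits was lower in LPS than in Ctrl. With equal totals, all of these calls were lost by limma: in naïve Mϕ Psmb2 (0.61, adjusted p = 0.0976) and Psma6 (0.51, adjusted p = 0.0508), and in efferocytic Mϕ Psma6 (0.46, adjusted p = 0.0744), Psma5 (0.91, adjusted p = 0.0856), Psmd11 (0.44, adjusted p = 0.0667) and Psmd7 (0.25, adjusted p = 0.230). Other settings ended the call of Psmb2 (only the groups compared, 0.0850, and a mean above 0, 0.0599) and of Psmd7 (a mean above 0, 0.0769). In naïve Mϕ, Psma5 was called with quantile normalization (0.0311) and by DESeq2 (0.0110), and Psmd7 by edgeR (0.0484). Psmb2 lost its call in naïve Mϕ without Ctrl replicate 1 (adjusted p = 0.205 from limma), LPS replicate 2 (0.156), Eff replicate 1 (0.0571), Eff replicate 2 (0.0577) or LPSEff replicate 2 (0.0502). Psma6 lost its call in naïve Mϕ without Ctrl replicate 1 (adjusted p = 0.108 from limma), Ctrl replicate 2 (0.0593) or LPS replicate 2 (0.0828). Psma6 lost its call in efferocytic Mϕ without Eff replicate 1 (adjusted p = 0.131 from limma), Eff replicate 2 (0.0652), LPSEff replicate 1 (0.0532) or LPSEff replicate 2 (0.117). Psma5 lost its call in efferocytic Mϕ without Eff replicate 1 (adjusted p = 0.239 from limma), Eff replicate 2 (0.0633), LPSEff replicate 1 (0.129) or LPSEff replicate 2 (0.175). Psmd7 lost its call in efferocytic Mϕ without Eff replicate 1 (adjusted p = 0.106 from limma), Eff replicate 2 (0.121), LPSEff replicate 1 (0.112) or LPSEff replicate 2 (0.0869). Psmd11 lost its call in efferocytic Mϕ without Eff replicate 1 (adjusted p = 0.0676 from limma) or LPSEff replicate 1 (0.0600).

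The proteasome activator PA28 went with the immunosubunits. Psme1 and Psme2 encode its α and β chains, which form the cap that opens the core in interferon-treated cells. Psme1 had 303 and 348 normalized counts in Ctrl, 1161 and 1454 in LPS, 246 and 264 in Eff, as well as 996 and 1095 in LPSEff. Psme2 had 162 and 256 in Ctrl, 804 and 994 in LPS, 131 and 182 in Eff, as well as 888 and 871 in LPSEff. Stimulated and unstimulated samples of both genes were far apart. The log2 fold change of Psme1 was 2.00 (SE 0.19, adjusted p = 0.000293 from limma) in naïve and 2.03 (SE 0.19, adjusted p = 0.000258) in efferocytic Mϕ. That of Psme2 was 2.13 (SE 0.27, adjusted p = 0.00114 from limma) and 2.50 (SE 0.27, adjusted p = 0.000561). Psme3, the nuclear activator PA28γ, was not called (−0.17 and −0.45), but with equal totals it was lower (−0.57, adjusted p = 0.0386, and −0.90, adjusted p = 0.00697, from limma). In all, 2 of the 5 activators and inhibitors were higher in each contrast, against 12.4% and 10.7% of all genes tested, with medians of 0.73 and 0.62 (0.33 and 0.17 with equal totals).

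Of 8 assembly chaperones, 1 was higher and 2 lower in LPS than in Ctrl, against 12.4% and 11.6% of all genes tested. In LPSEff against Eff, 2 were higher and 1 lower, against 10.7% and 8.95%, with medians of −0.17 and −0.05. With equal totals, 1 was higher and 4 lower in each contrast (medians −0.57 and −0.50). Psmd10, a chaperone of the 19S base, rose by 1.19 (SE 0.19, adjusted p = 0.00365 from limma) and 1.57 (SE 0.19, adjusted p = 0.00112). Pomp, the maturation factor of the 20S core, had log2 fold changes of 0.54 (adjusted p = 0.144 from limma) and 0.84 (adjusted p = 0.0407). Psmg1, which helps to build the α ring, changed by −1.60 (SE 0.26, adjusted p = 0.00331 from limma) and −1.17 (SE 0.26, adjusted p = 0.0147). Its partner Psmg2 changed by −1.36 (adjusted p = 0.0272 from limma) and −0.98 (adjusted p = 0.0948). Pomp lost its call in efferocytic Mϕ without Ctrl replicate 1 (adjusted p = 0.0650 from limma), Ctrl replicate 2 (0.0649), Eff replicate 1 (0.218), Eff replicate 2 (0.0751), LPSEff replicate 1 (0.0562) or LPSEff replicate 2 (0.204). Pomp also lost it with equal totals (0.39, adjusted p = 0.160, from limma), with only the groups compared (0.0570) and with a mean above 0 (0.0761). Psmg1 lost its call in efferocytic Mϕ without Eff replicate 1 (adjusted p = 0.0984 from limma), Eff replicate 2 (0.0620) or LPSEff replicate 1 (0.0987). Psmg2 lost its call in naïve Mϕ without Ctrl replicate 1 (adjusted p = 0.0597 from limma), Ctrl replicate 2 (0.153) or LPS replicate 1 (0.129). Psmg2 also lost it with only the groups compared (0.0536), and with equal totals it was lower in efferocytic Mϕ as well (−1.42, adjusted p = 0.0117, from limma).

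Of 5 other loading factors, 1 was called in each LPS/IFNγ contrast, against 12.4% and 10.7% of all genes tested that were higher. This was Tapbpl, the peptide editor TAPBPR. It had 126 and 189 normalized counts in Ctrl, 707 and 1452 in LPS, 111 and 128 in Eff, as well as 739 and 934 in LPSEff. Its log2 fold change was 2.71 (SE 0.35, adjusted p = 0.00124 from limma) in naïve and 2.79 (SE 0.35, adjusted p = 0.00119) in efferocytic Mϕ. The general chaperones of the endoplasmic reticulum were not called, with log2 differences of 0.32 and 0.47 for Calr, −0.02 and 0.25 for Canx, and 0.19 and 0.27 for Pdia3. The list had medians of 0.19 and 0.27, which became −0.21 and −0.18 with equal totals and −0.59 and −0.53 with quantile normalization. In LPS against Ctrl, 1 more factor was lower with either scaling. Among 8 peptidases, 2 were higher and 1 lower in naïve Mϕ, against 12.4% and 11.6% of all genes tested, and 1 higher and 1 lower in efferocytic Mϕ, against 10.7% and 8.95%. With equal totals, 2 were higher and 1 lower in naïve Mϕ, and 1 higher and 2 lower in efferocytic Mϕ. The leucine aminopeptidase Lap3 rose by 1.41 (SE 0.19, adjusted p = 0.00144 from limma) and 1.30 (SE 0.19, adjusted p = 0.00244). Lnpep, an aminopeptidase of endosomes, changed by 1.26 (adjusted p = 0.0279 from limma) and 0.87 (adjusted p = 0.109). Thop1, which degrades peptides in the cytosol, changed by −1.31 (SE 0.18, adjusted p = 0.00176 from limma) and −0.85 (SE 0.18, adjusted p = 0.0136). Erap1, which trims peptides in the endoplasmic reticulum, was not called (0.70, adjusted p = 0.263, and 1.02, adjusted p = 0.121, from limma), but DESeq2 called it in efferocytic Mϕ (adjusted p = 0.0226). With the replicate number as a block, Erap1 was called in both contrasts (adjusted p = 0.00235 and 0.000227 from limma). Lnpep lost its call in naïve Mϕ without Ctrl replicate 1 (adjusted p = 0.148 from limma), Ctrl replicate 2 (0.0721) or LPS replicate 2 (0.126). Lnpep also lost it with quantile normalization (0.52, adjusted p = 0.233 from limma), and DESeq2 called it in efferocytic Mϕ (adjusted p = 0.0177). Thop1 lost its call in efferocytic Mϕ without Eff replicate 1 (adjusted p = 0.0980 from limma), Eff replicate 2 (0.0628), LPSEff replicate 1 (0.0630) or LPSEff replicate 2 (0.0717).

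Most of the non-classical heavy chains tested were called higher with LPS/IFNγ. Of 16 listed, 14 were tested, and 10 were higher in LPS than in Ctrl and 9 in LPSEff than in Eff, against 12.4% and 10.7% of all genes tested, with none lower and medians of 1.55 and 1.64. Fewer were called in naïve Mϕ when any Ctrl or LPS sample was left out, with medians between 1.33 and 1.63. H2-M2 rose most, from 66.6 and 75.8 normalized counts in Ctrl to 705 and 1497 in LPS, and from 31.5 and 31.1 in Eff to 587 and 1325 in LPSEff. Its log2 fold change was 3.83 (SE 0.44, adjusted p = 0.000679 from limma) in naïve and 4.77 (SE 0.44, adjusted p = 0.000234) in efferocytic Mϕ. H2-T24 followed with 2.82 and 2.73 (SE 0.28 each). H2-T23, the Qa-1 chain, rose by 1.69 and 1.92 (SE 0.26 each), and H2-M3, which presents N-formylated peptides, by 1.15 and 1.30 (SE 0.23 each). H2-Q7 had a log2 fold change of 0.91 (adjusted p = 0.270 from limma) and 2.07 (adjusted p = 0.0288), from at most 26.1 normalized counts in any sample. H2-M3 lost its call in naïve Mϕ without Ctrl replicate 1 (adjusted p = 0.0626 from limma). H2-Q7 lost its call in efferocytic Mϕ without Eff replicate 2 (adjusted p = 0.154 from limma), LPSEff replicate 1 (0.167) or LPSEff replicate 2 (0.0804). With only the groups compared, H2-Q7 was not called either (adjusted p = 0.0563 from limma). Shared windows make these levels uncertain as well, with 40.2% in H2-Q7 and 30.4% in H2-T23, but 0.704% in H2-M2 and 0.574% in H2-M3.

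Of 5 class I-like molecules tested, 2 were higher and 3 lower in LPS than in Ctrl, against 12.4% and 11.6% of all genes tested. In LPSEff against Eff, 1 was higher and none lower, against 10.7% and 8.95%, with medians of −1.08 and 0.06. With equal totals the medians were −1.47 and −0.39. Each of the lower calls in naïve Mϕ depended on single samples, and left-out Ctrl or LPS samples moved the median to between −1.26 and −0.83. Cd1d1, which presents lipids to NKT cells, rose by 1.47 (SE 0.21, adjusted p = 0.00214 from limma) and 1.36 (SE 0.21, adjusted p = 0.00354). Mr1, which presents vitamin B metabolites to MAIT cells, changed by −1.94 (SE 0.45, adjusted p = 0.0164 from limma) and −1.03 (adjusted p = 0.153). Hfe, a regulator of iron uptake, changed by −1.30 (adjusted p = 0.0297 from limma) and −0.64 (adjusted p = 0.258). Cd1d2 changed by 1.76 (adjusted p = 0.0121 from limma) and 1.17 (adjusted p = 0.0656), and it is a close copy of Cd1d1. Mr1 lost its call in naïve Mϕ without Ctrl replicate 1 (adjusted p = 0.0803 from limma), Ctrl replicate 2 (0.0785) or LPS replicate 1 (0.0803). Hfe lost its call in naïve Mϕ without Ctrl replicate 1 (adjusted p = 0.0635 from limma), Ctrl replicate 2 (0.163) or LPS replicate 1 (0.135). Hfe also lost it with only the groups compared (0.0665). With equal totals, efferocytic Mϕ passed as well for Mr1 (−1.48, adjusted p = 0.0261, from limma) and Hfe (−1.08, adjusted p = 0.0277). Cd1d2 lost its call in naïve Mϕ without Ctrl replicate 1 (adjusted p = 0.0676 from limma) or LPS replicate 2 (0.0610). That a call was made in naïve but not in efferocytic Mϕ does not show a difference between them, since no interaction passed by limma.

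**Figure D3:**
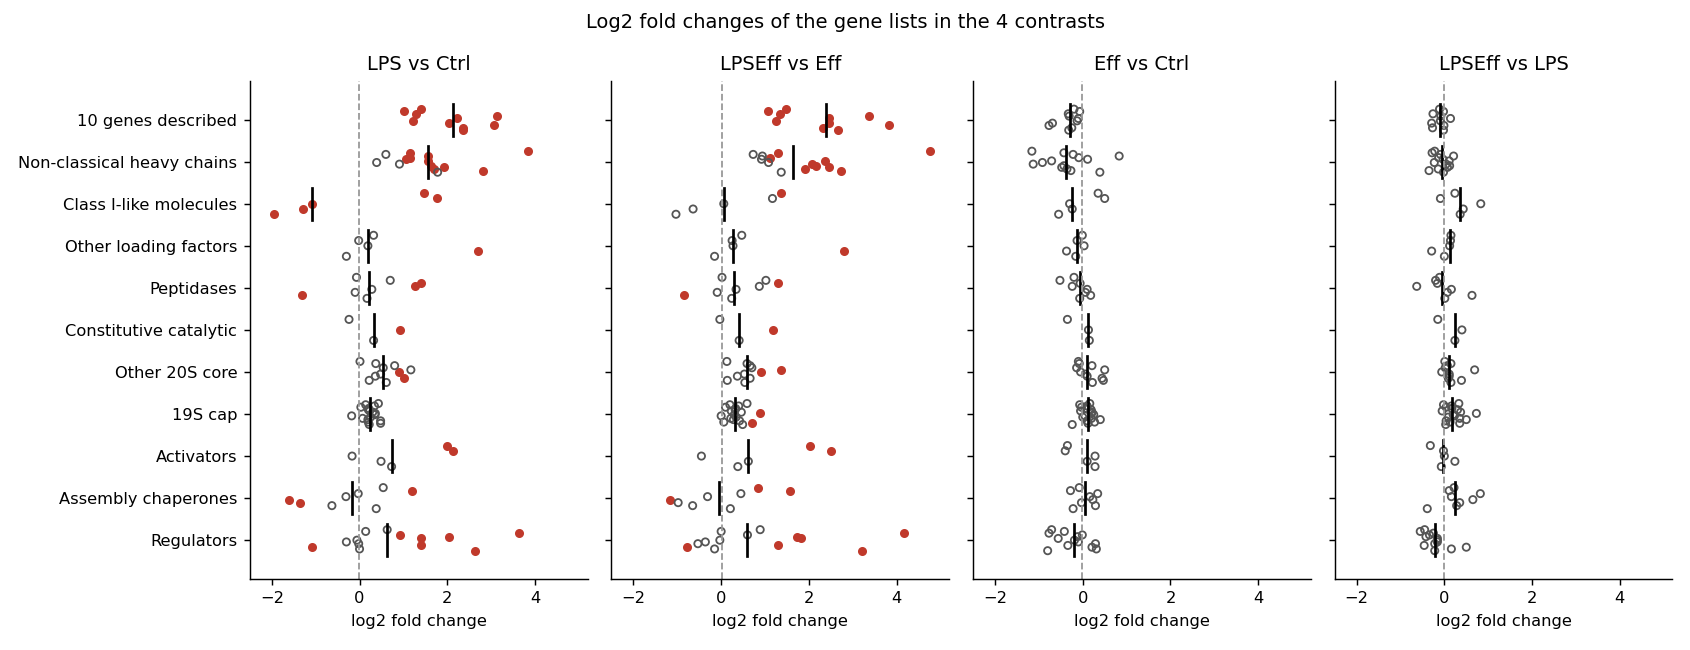
Log2 fold changes of each tested gene in 11 lists (rows) for 4 contrasts (panels), with filled points for genes called at an adjusted p under 0.05 from limma, open points for the others, black lines for list medians and a dashed line for the median of all genes tested. The 10 genes described have medians of 2.14 and 2.39 in the LPS/IFNγ contrasts and of −0.28 and −0.09 in the efferocytosis contrasts, where no point is filled.

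Among other regulators of class I promoters and of the interferon response, 6 of 13 were higher and 1 lower in LPS than in Ctrl, against 12.4% and 11.6% of all genes tested. In LPSEff against Eff, 5 were higher and 1 lower, against 10.7% and 8.95%, with medians of 0.63 and 0.60. With equal totals, 2 and 3 were lower and the medians were 0.23 and 0.15, and with quantile normalization the medians were 0.13 and 0.49. Left-out samples moved the naïve median to between 0.15 (without Ctrl replicate 1) and 1.09 (without LPS replicate 1). The efferocytic median moved to between 0.20 (without Eff replicate 1) and 0.76 (without LPSEff replicate 1). Irf1, an interferon-induced activator, had 303 and 317 normalized counts in Ctrl, 3043 and 4923 in LPS, 179 and 183 in Eff, as well as 3001 and 3533 in LPSEff. Both Eff samples were below both Ctrl samples, and the stimulated groups overlapped. The log2 fold change of Irf1 was 3.64 (SE 0.24, adjusted p = 6.00e-05 from limma) in naïve and 4.16 (SE 0.24, adjusted p = 2.99e-05) in efferocytic Mϕ. Stat2, a signal transducer of type I interferons, rose by 2.63 (SE 0.17, adjusted p = 5.39e-05 from limma) and 3.22 (SE 0.17, adjusted p = 1.87e-05). Rfx5 and Rfxank encode subunits of the RFX complex, with which Nlrc5 and Ciita act on promoters. Rfx5 rose by 1.41 (SE 0.26, adjusted p = 0.00590 from limma) and 1.29 (SE 0.26, adjusted p = 0.0101), whereas Rfxank changed by −1.08 (SE 0.19, adjusted p = 0.00483) and −0.79 (SE 0.19, adjusted p = 0.0203). Rfx5 lost its call in efferocytic Mϕ without Eff replicate 1 (adjusted p = 0.0758 from limma) or LPSEff replicate 1 (0.0594). Rfxank lost its call in efferocytic Mϕ without Eff replicate 1 (adjusted p = 0.116 from limma), Eff replicate 2 (0.0959), LPSEff replicate 1 (0.127) or LPSEff replicate 2 (0.0541). Rfxank also lost it with a mean above 0 (0.0686). Ciita, the class II counterpart of Nlrc5, had 887 and 2235 normalized counts in Ctrl, 1125 and 4211 in LPS, 509 and 1447 in Eff, as well as 1184 and 2133 in LPSEff. Replicate 2 was higher than replicate 1 in each group, the groups overlapped, and limma without further terms did not call Ciita (0.63 and 0.89, SE 0.73 each). With the replicate number as a block, Ciita was called in both contrasts (adjusted p = 0.0313 and 0.00621 from limma), but no label pairs the samples.

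Without further terms, limma called no gene of these lists outside the fibroblast and neutrophil markers in Eff against Ctrl or in LPSEff against LPS. With the replicate number as a block, it called Tap1, Irf1 and Stat2 in Eff against Ctrl. In LPSEff against LPS the block called Psmd11, Lnpep and Thop1, but no label pairs the samples. DESeq2 called Stat2 lower in Eff than in Ctrl (adjusted p = 0.0221), where limma gave −0.80 (adjusted p = 0.163). Without stimulation the medians were −0.39 for the non-classical heavy chains, −0.19 for the regulators, 0.10 for the other 20S core subunits and 0.11 for the 19S cap. With LPS/IFNγ they were −0.06, −0.22, 0.11 and 0.18 in the same order.

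The genes most like the 10 were sought by Pearson's r with their mean z-score profile over the 8 samples, among 16176 tested genes on no list. The highest were Cd40 (r = 0.999), Cxcl9 (0.998), AW112010 (0.998), Parp11 (0.998) and Dtx3l (0.997). These are descriptions without a p, and the samples fall into stimulated and unstimulated sets, so that a large response to LPS/IFNγ alone can give a high r. In all, 1480 genes had an r above 0.9, and leave-one-out only 2 to 4 of the 5 recurred. Cd40, a co-stimulatory receptor, had 68.6 and 120.3 normalized counts in Ctrl, 6128 and 9749 in LPS, 26.3 and 58.6 in Eff, as well as 5490.5 and 6027 in LPSEff. Its Eff samples lay below its Ctrl samples and its LPSEff samples below its LPS samples.

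Several of the 10 genes are neighbours. Psmb9 (34400960 to 34406738, minus strand), Tap1 (34405996 to 34416199), Psmb8 (34416690 to 34420428) and Tap2 (34422501 to 34435829) lie in this order on chromosome 17 of GRCm39. The annotated spans of Psmb9 and Tap1 overlap at their ends, on opposite strands. The class II genes H2-DMa, H2-DMb1 and H2-DMb2 on one side and H2-Ob and H2-Ab1 on the other, named after their values were seen, were not called in either LPS/IFNγ contrast. H2-Ab1 had log2 fold changes of 1.11 and 1.08 (SE 0.81 each), with replicate 2 above replicate 1 in each group. Antisense genes were also named after their values were seen. Gm20496 overlaps Psmb8 and Tap2 on the minus strand and had log2 fold changes of 1.47 and 1.57, and Gm15821 overlaps Tap2 there with 2.55 and 2.41. The counting was done in the default mode of htseq-count, which uses strand. Tapbp, H2-K1 and H2-D1 lie elsewhere on chromosome 17, Psmb10 with Nlrc5 on chromosome 8 and B2m on chromosome 2.

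Promoters are shown because the genes rose together. RefSeq promoters (GRCm38.p6) were found for 8 of the 10 genes, and not for Nlrc5 and Tap2. The 250 bases before each gene start were searched on both strands for TTTCNNTTT (interferon-stimulated response element core), TTCNNNGAA (GAS), CCAAT (Y box), TGACG (X2 box core), GGGATTCCC (enhancer A core) and GGGANTTCC (kappa B). The Y box letters were found in 6 of the 8 genes, against 33.8% of 32851 promoters, and the X2 letters in 5, against 17.8%. GGGATTCCC was found in H2-K1 and H2-D1, against 0.301% of all promoters, the response element core in B2m alone, against 9.37%, and GAS in Psmb8 alone, against 7.02%. Only exact matches were counted. H2-K1 and H2-D1 hold TTTCACTTC after GGGATTCCC, which differs from TTTCNNTTT in its last base alone, so that a near match is not excluded by the search. GGGANTTCC was in none of the 8, against 1.43%. The plan listed GGGATTCCC as kappa B letters too, so that this absence holds for GGGANTTCC only. In B2m, H2-K1 and H2-D1 the X2 letters are followed by ATTGG, the Y box read on the other strand, 25 bases further on, counted from start to start. This spacing was chosen after the matches had been seen, and it occurs in 0.0548% of all promoters, that of H2-M3 among them. In H2-K1 and H2-D1, GGGATTCCC starts 69 bases before the X2 letters. Matches are descriptions of letters, not of bound sites. Capitals mark the matches in these sequences, 5′ to 3′ towards each gene, and the last is the stretch between the starts of Psmb9 and Tap1, read towards Tap1. Its X2 and Y letters are the same copies that were counted for both genes.
H2-K1, chr17:34000348-34000597, minus strand: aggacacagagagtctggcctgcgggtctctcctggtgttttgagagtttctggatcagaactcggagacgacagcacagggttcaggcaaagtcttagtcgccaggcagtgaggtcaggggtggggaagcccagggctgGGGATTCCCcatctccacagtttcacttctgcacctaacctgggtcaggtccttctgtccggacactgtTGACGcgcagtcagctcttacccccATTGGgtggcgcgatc
H2-D1, chr17:35262844-35263093, plus strand: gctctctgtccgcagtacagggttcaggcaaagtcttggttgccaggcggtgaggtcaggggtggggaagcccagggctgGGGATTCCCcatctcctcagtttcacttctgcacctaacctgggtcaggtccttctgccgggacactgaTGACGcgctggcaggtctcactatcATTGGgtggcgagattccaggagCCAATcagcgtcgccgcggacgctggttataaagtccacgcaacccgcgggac
B2m, chr2:122147437-122147686, plus strand: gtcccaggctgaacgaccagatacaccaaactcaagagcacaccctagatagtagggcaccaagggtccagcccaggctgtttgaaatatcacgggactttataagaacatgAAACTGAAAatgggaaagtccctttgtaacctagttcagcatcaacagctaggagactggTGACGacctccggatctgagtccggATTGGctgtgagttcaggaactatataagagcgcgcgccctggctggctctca
Psmb9 to Tap1, chr17:34187331-34187555, plus strand: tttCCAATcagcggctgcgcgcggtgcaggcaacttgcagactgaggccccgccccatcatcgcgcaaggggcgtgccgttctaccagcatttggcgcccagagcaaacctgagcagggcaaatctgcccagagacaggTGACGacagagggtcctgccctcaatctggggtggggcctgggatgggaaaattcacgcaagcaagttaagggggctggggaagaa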

How the data were processed

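Per the labels, the authors removed rRNA, cleaned reads with cutadapt and Bowtie2, aligned them to mm39 with STAR, counted genes with HTSeq and scaled the counts with DESeq2. What was deposited is a signal, namely the normalized count of each gene in each sample. In each of the 8 samples, 100% of values were whole multiples (tolerance 0.01) of the smallest value, which gave the recovered reads. There, 3 reads are worth 1.73 to 5.71 normalized counts, a floor for counting error only. GENCODE vM39 (GRCm39) named the genes.

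Limma 3.58.1 (R 4.3.3) with a trend was fitted on the log2 scale (pseudocount 1) to the 16309 genes whose mean reached 10, with 4 group means and 4 residual degrees of freedom, and p-values were adjusted by Benjamini-Hochberg over these genes. In LPS against Ctrl, edgeR 4.0.16 called 3991 genes on the recovered reads and DESeq2 1.42.0 called 3954, against 3910 by limma. In LPSEff against Eff the counts were 3509, 3519 and 3213. Alternatives were other pseudocounts (0.5, 5) and filters (a mean above 0, a mean of at least 50), only the groups compared, the replicate number as a block, equal totals, quantile normalization, edgeR, DESeq2 and leaving out each sample. Chosen after seeing the data were edgeR and DESeq2 with the replicate number as a block and the union of exons as length. The plan named exon length without saying of which transcripts. The main length, the Ensembl canonical transcript, is therefore a choice as well. The fits were also run on simulated counts, with the same dispersion for every gene and no difference between replicate numbers. That check therefore does not cover replicate differences or the choice of scaling in these data.

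Named besides the 10 genes were 17 further genes, the 2 largest called rises and falls of each other pathway list, and the 5 most alike genes. The members and lists were chosen with earlier results of these data known. A further gene of the regulator list is not reported here, and its counts and medians leave it out.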

Additional observations from a re-analysis of the deposited data

How the results depend on the processing

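Of 200 alternative values for the 10 genes in each LPS/IFNγ contrast, 200 kept their direction, and 186 (LPS against Ctrl) and 187 (LPSEff against Eff) kept their call. With quantile normalization 6 and 6 of the 10 were called. Genes called in LPS against Ctrl (3910) became 6717 with the replicate block, 6663 by edgeR with replicate block and 2076 to 3562 leave-one-out. Those in LPSEff against Eff (3213) became 6033 with the replicate block, 5578 with equal totals, 6314 and 5294 by edgeR and DESeq2 with replicate block, and 1567 to 3407 leave-one-out. In Eff against Ctrl, 41 became 79 with a mean above 0, 20 with a mean of at least 50, 9 with only the groups compared, 436 with the replicate block, 14 by edgeR, 204 by DESeq2, 429 and 519 by edgeR and DESeq2 with replicate block, and 0 to 45 leave-one-out. In LPSEff against LPS, 126 became 66 with only the groups compared, 1137 with the replicate block, 368 by DESeq2, 1233 and 1082 by edgeR and DESeq2 with replicate block, and 0 to 84 leave-one-out. For the interaction, DESeq2 with replicate block called 29. Of the 10 genes, the replicate block called 1 in Eff against Ctrl (Tap1, adjusted p = 0.01996 from limma), edgeR with replicate block 1 (Tap1, 0.0287) and DESeq2 with replicate block 2 (Tap1, 0.000724, and Psmb9, 0.0313). Among 84 results of the other named genes in the LPS/IFNγ contrasts, the replicate block added 16 calls, such as Ciita (adjusted p = 0.0313 and 0.00621 from limma) and Erap1 (0.00235 and 0.000227). In Eff against Ctrl it also called Irf1 (0.0405) and Stat2 (0.0106), and in LPSEff against LPS Psmd11 (0.0123), Lnpep (0.0345) and Thop1 (0.0379). Of the 11 other core subunits, the replicate block called 7 in each LPS/IFNγ contrast, and of the 18 cap subunits 2 and 6. The difference of replicate 2 from replicate 1 correlated between groups (replicate block check, r = 0.404 to 0.595 over 6 pairs of groups), but no label pairs the samples.

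With the union of exons as length, the mean shares in Ctrl, LPS, Eff and LPSEff were 75.6%, 89.5%, 78.7% and 90.2% for Psmb8 against Psmb5 and 73.5%, 91.1%, 69.9% and 90.6% for Psmb10 against Psmb7. For Psmb9 against Psmb6 they were 23.2% in Ctrl and 29.0% in LPSEff, and without length 34.3% in Ctrl, 22.97% in Eff and 41.5% in LPSEff. Of the 5 most alike genes, 2 to 4 recurred leave-one-out.

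Estimates that changed sign were all of uncalled results. Tap2, interaction, was 0.0619 by edgeR, 0.0331 by DESeq2, and 0.0506 and 0.0199 by edgeR and DESeq2 with replicate block. Psmb8, interaction, was −0.014 with equal totals, and H2-D1, interaction, −0.0163 with quantile normalization. Psmb5, LPSEff vs Eff, was 0.0105 with quantile normalization, 0.0202 by edgeR, 0.00651 by DESeq2 and 0.00487 by edgeR with replicate block. With equal totals, Psmb7 was −0.0798 in LPS vs Ctrl and −0.0406 in LPSEff vs Eff, Calr −0.0814 and Psmd11 −0.0400 in LPS vs Ctrl, Canx −0.20 in LPSEff vs Eff, and Pdia3 −0.21 in LPS vs Ctrl and −0.18 in LPSEff vs Eff. With quantile normalization, Calr was −0.52 in LPS vs Ctrl and −0.45 in LPSEff vs Eff, Canx −0.64 in LPSEff vs Eff, and Pdia3 −0.59 in LPS vs Ctrl and −0.53 in LPSEff vs Eff. Canx, LPS vs Ctrl, was 0.00995 by edgeR, 0.0268 by DESeq2, and 0.00362 and 0.0142 by edgeR and DESeq2 with replicate block. Leave-one-out ranges in Eff vs Ctrl were −0.79 to 0.30 for Tap2, −0.43 to 0.035 for B2m, −0.52 to 0.27 for Psmb8 and −0.25 to 0.11 for H2-D1. In LPSEff vs LPS they were −0.19 to 0.0243 for Nlrc5, −0.20 to 0.17 for Tap1, −0.15 to 0.10 for Tapbp, −0.45 to 0.23 for B2m, −0.28 to 0.0942 for Psmb8 and −0.23 to 0.19 for H2-D1. For the interaction they were −0.0337 to 0.49 for Nlrc5, −0.57 to 0.52 for Tap2, −0.25 to 0.43 for B2m, −0.36 to 0.43 for Psmb8, −0.0275 to 0.16 for H2-K1 and −0.15 to 0.26 for H2-D1. In LPS vs Ctrl and LPSEff vs Eff, leave-one-out ranges were −0.51 to 0.0388 and −0.26 to 0.19 for Psmb5, −0.34 to 0.29 and −0.0785 to 0.58 for Canx, and −0.18 to 0.56 and −0.10 to 0.65 for Pdia3, and that of Ciita in LPS vs Ctrl was −0.32 to 1.58. A group left with 1 sample is assumed to vary like the others. The causes were not tested. Ctrl replicate 1, the shallowest sample, had the highest floor, with 3 reads worth 5.71 normalized counts.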
